A study of Mus musculus with 4 samples.

Results

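Nonproductive TCRα rearrangements are V to J joins whose transcript cannot be read into a complete receptor chain, because the join shifted the reading frame or created a stop codon. They were taken as every TCRα clone whose translated CDR3, the hypervariable loop that spans the V to J junction, held a frameshift mark or a stop mark in the deposited clone tables. Of 189388 TCRα clones, 25523 met this rule. Of these, 25209 carried a frameshift and 314 carried an in-frame stop codon in the CDR3. The other clones comprised 157998 with an in-frame CDR3 and 5867 whose CDR3 was not covered by the assembled sequence.

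The clones came from 4 TCR SMART-seq libraries of total splenic CD4 T cells, sorted as live CD4+ CD25- TCRβ+ cells that did not bind the αGalCer-loaded CD1d tetramer, a gate that removes invariant NKT (iNKT) cells and CD25 expressing cells. The mice had an average age of 25 days. There were 2 wild type (WT) mice on the C57BL/6 background and 2 Tet2/3 DKO mice, which are Tet2-/- Tet3 flx/flx CD4Cre. TET2 and TET3 are dioxygenases that oxidise 5-methylcytosine. Tet2 is lost in the germline of the DKO mice, whereas Tet3 is deleted only from the thymocyte stage at which the CD4 promoter drives Cre. The libraries held 172506 to 287799 TCRα reads and no molecular identifiers, so intervals given below cover counting error only. Where 4 values follow each other, they are in the order WT replicate 1, WT replicate 2, Tet2/3 DKO replicate 1 and Tet2/3 DKO replicate 2, and SDs over 4 libraries mix both genotypes.

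The TCRα locus on chromosome 14 has many V and J segments but, unlike TCRβ, no D segments, so each clone has a single V to J junction, trimmed at both ends and extended by non-templated bases. The locus rearranges in successive rounds that use V and J segments ever further apart, and both alleles are commonly rearranged. A mature T cell needs at least 1 allele that encodes a functional chain, so a nonproductive transcript in a sorted αβ T cell is a second transcript beside that functional chain, and its protein is not selected. Nonproductive joins are commonly read as a record of recombination before selection. A CDR3 begins with the codon of the conserved cysteine encoded by the V segment and ends with that of the phenylalanine encoded by the J segment, and it is in frame when its length is a multiple of 3.

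The most abundant nonproductive rearrangement of each library is shown first, because these are the largest transcripts of the class. Inserted bases, which neither the V nor the J segment encodes, are in capitals, and all sequences run 5′ to 3′ from the cysteine codon to the phenylalanine codon:
WT replicate 1, TRAV11 TRAJ34: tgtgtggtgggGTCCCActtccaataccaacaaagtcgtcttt
WT replicate 2, TRAV1 TRAJ16: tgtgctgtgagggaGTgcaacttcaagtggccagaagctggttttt
Tet2/3 DKO replicate 1, TRAV5-4 TRAJ37: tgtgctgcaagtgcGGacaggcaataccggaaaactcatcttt
Tet2/3 DKO replicate 2, TRAV7D-5 TRAJ24: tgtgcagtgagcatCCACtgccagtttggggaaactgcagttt

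These CDR3s were 43, 46, 43 and 43 nt long, and each left a remainder of 1 after division by 3. They held 122, 96, 58 and 372 reads in the order shown, and none was found in another library. The TRAV7D-5 TRAJ24 join of Tet2/3 DKO replicate 2 held 1.29% of the nonproductive reads of its library. Counted among all rearrangements of the same library, the 4 joins ranked 30th, 50th, 91st and 21st. All 4 could be read past the junction to the end of framework 4, the last stretch encoded by the J segment, without a stop codon.

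A second set, the 3 nonproductive rearrangements present in all 4 libraries, had no inserted base. The part encoded by the J segment is in capitals:
TRAV13-1 TRAJ31: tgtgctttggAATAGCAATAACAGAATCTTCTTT
TRAV6-6 TRAJ23: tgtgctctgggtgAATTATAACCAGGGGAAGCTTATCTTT
TRAV7-5 TRAJ32: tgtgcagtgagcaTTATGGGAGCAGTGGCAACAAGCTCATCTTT

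TRAV13-1 TRAJ31 had 10, 7, 10 and 3 reads. TRAV6-6 TRAJ23 had 10, 2, 2 and 6 reads, and TRAV7-5 TRAJ32 had 4, 6, 2 and 4 reads. The TRAV6-6 TRAJ23 join lay 1 nucleotide from an in-frame clone of the same segments that had 66 reads in WT replicate 1.

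Joins with an in-frame stop codon are illustrated by the most abundant example per library with the stop at the junction, shown with the stop codon in capitals:
WT replicate 1, TRAV6-5 TRAJ30: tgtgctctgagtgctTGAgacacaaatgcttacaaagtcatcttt
WT replicate 2, TRAV13N-4 TRAJ12: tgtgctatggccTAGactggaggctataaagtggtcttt
Tet2/3 DKO replicate 1, TRAV7D-5 TRAJ26: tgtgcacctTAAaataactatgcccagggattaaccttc
Tet2/3 DKO replicate 2, TRAV6D-7 TRAJ26: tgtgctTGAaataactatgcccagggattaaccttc

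These held 10, 15, 11 and 10 reads. All 3 stop codons occurred at the junction, with TGA in 79, TAG in 57 and TAA in 46 of the 182 clones whose in-frame stop lay there. The other in-frame stops lay in the J part in 91 clones and in the V part in 41 clones. Clones with a stop in the J part had a mean of 1.22 reads and those with a stop in the V part 1.10 reads, against 2.74 reads for a stop at the junction. In the J and V parts, 90.1% and 95.1% of these clones were single reads.

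The first comparison asked which share of TCRα clones was nonproductive in each genotype. Among clones with a covered CDR3, the nonproductive share was 14.3% in WT replicate 1 (5422 of 37951, 95% Wilson interval 13.9% to 14.6%) and 13.6% in WT replicate 2 (6407 of 47160, 13.3% to 13.9%). It was 14.0% in Tet2/3 DKO replicate 1 (6407 of 45910, 13.6% to 14.3%) and 13.9% in Tet2/3 DKO replicate 2 (7287 of 52500, 13.6% to 14.2%). Both DKO values lay between the WT values. The genotype means were 13.9% ± 0.496 (SD, n = 2) in WT and 13.9% ± 0.0534 (SD, n = 2) in Tet2/3 DKO, a difference of -0.0185 percentage points (exact two-sided permutation test, p = 1). With 2 libraries against 2, this test cannot give a p below 0.33, and the smallest p for 4 within-library differences tested by sign flips rounds to 0.13, so these tests cannot reach 0.05.

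Of the reads, nonproductive clones held 10.4% in WT replicate 1, 10.3% in WT replicate 2, 10.9% in Tet2/3 DKO replicate 1 and 10.2% in Tet2/3 DKO replicate 2. Again the genotypes overlapped, and Tet2/3 DKO minus WT was 0.207 percentage points (exact permutation test, p = 1). In-frame stops accounted for 0.182% and 0.187% of the clones in WT and for 0.157% and 0.162% in Tet2/3 DKO. These shares did not overlap between genotypes, with 69 to 88 such clones per library and an exact permutation p of 0.33, the smallest the design allows.

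TCRβ, whose locus is subject to allelic exclusion, gives a reference within the same libraries. Under the same rule 3.98%, 3.60%, 3.82% and 3.81% of TCRβ clones were nonproductive. The TCRα share was higher by 10.1 percentage points ± 0.137 (SD, n = 4) and exceeded the TCRβ share in 4 of 4 libraries (exact sign-flip test, p = 0.13). The cause of this gap was not tested.

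Some nonproductive clones lay 1 substitution, insertion or deletion from a more abundant in-frame clone with the same V and J segment, as an amplification or sequencing error would also leave them. The most abundant such pair, in Tet2/3 DKO replicate 2, is shown with the base that the nonproductive CDR3 lacks in capitals:
nonproductive, TRAV7-2 TRAJ21: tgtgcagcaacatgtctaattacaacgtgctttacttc
in-frame, TRAV7-2 TRAJ21: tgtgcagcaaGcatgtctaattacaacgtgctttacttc

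The nonproductive member had 25 reads and the in-frame member 97 reads. Such possible copies made up 13.2%, 15.4%, 15.6% and 15.9% of nonproductive clones. Their mean was 2.60 to 2.85 reads per clone, against 3.28 to 4.16 reads for the other nonproductive clones. They were most frequent among rearrangements without inserted bases (27.4%) and rare among those with at least 6 inserted bases (1.56%). Whether they are errors was not tested, and values without them are given beside several results. Leaving them out removed nonproductive clones only, as no in-frame clone was left out. It therefore lowers nonproductive numbers most strongly among joins without inserted bases, whether or not these possible copies are errors. Without them the Tet2/3 DKO minus WT difference of the nonproductive share of clones was -0.199 percentage points.

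The next comparison concerned the reads per clone, in which clone size and transcript level cannot be told apart. Nonproductive clones had a mean of 3.19, 3.36, 3.22 and 3.95 reads, and in-frame clones had 4.59, 4.62, 4.28 and 5.60 reads. The nonproductive mean was thus lower by 0.47 ± 0.05 on the log2 scale (SD, n = 4) and lower in 4 of 4 libraries (exact sign-flip test, p = 0.13). The median was 3 reads in both classes in every library. Most of the gap came from large clones. Clones with at least 10 reads made up 1.78% to 3.82% of nonproductive clones and 6.68% to 8.88% of in-frame clones. Among clones under 10 reads, a limit set after the values were seen, the log2 difference was -0.10. The largest nonproductive clones had 58 to 365 reads and the largest in-frame clones 327 to 3102 reads. The log2 ratio was -0.49 in WT and -0.46 in Tet2/3 DKO on average (exact permutation test, p = 0.667).

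**Figure D1:**
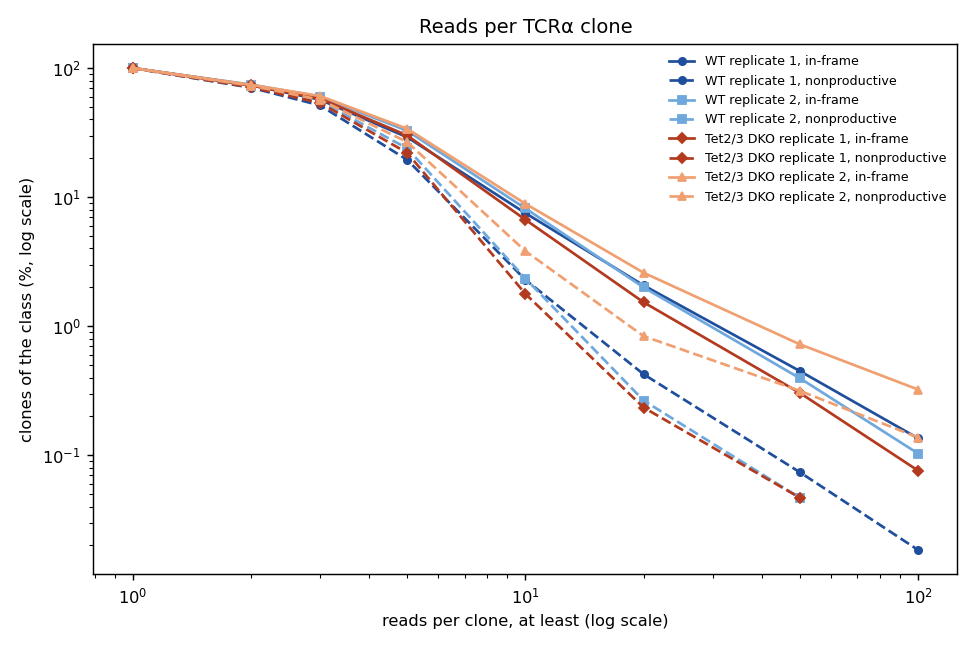
Share of TCRα clones of each class (vertical axis, percent, log scale) that had at least the number of reads on the horizontal axis (log scale), for in-frame clones (solid lines) and nonproductive clones (dashed lines) of the 4 libraries. The dashed line lies below the solid line of the same library from 2 reads upward, with 1.78% to 3.82% against 6.68% to 8.88% of clones at 10 reads.

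Transcripts with an early stop codon can be degraded by nonsense-mediated decay, so reads per clone were compared by where the shifted frame first met a stop. Of the 25209 frameshift clones, 14719 met the first stop in the J part, 651 at the junction and 25 in the V part, whereas 9814 met none before the end of framework 4. The mean was 3.46 reads for a stop in the J part, 3.33 reads at the junction and 3.51 reads where no stop was met. Clones with a stop at least 50 nt before the end of framework 4 had 3.43, 3.42, 3.14 and 4.21 reads. Those with no stop had 3.19, 3.39, 3.31 and 4.03 reads. The log2 ratio of the former to the latter was 0.03 ± 0.08 (SD, n = 4), lower in 1 of 4 libraries (exact sign-flip test, p = 0.5). The frame was not followed past framework 4, so a clone without a stop there may still meet one later. Whether decay acts on these transcripts was thus not tested. The codon that closed the shifted frame was TAA in 51.6%, TGA in 31.8% and TAG in 16.6% of the frameshift clones that met a stop.

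For the CDR3 and segment comparisons, all clones of a library that had 1 V segment, 1 J segment and 1 CDR3 nucleotide sequence in common were merged into 1 rearrangement. This gave 4974, 5798, 5768 and 6500 nonproductive rearrangements. In-frame rearrangements numbered 29320 to 39425 per library.

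Nonproductive CDR3s spread over a wider range of lengths than in-frame CDR3s. Their mean length was 40.7, 40.7, 40.9 and 41.0 nt, and that of in-frame CDR3s was 40.2, 40.2, 40.3 and 40.5 nt. The difference was 0.528 nt ± 0.0298 (SD, n = 4), with a longer nonproductive mean in 4 of 4 libraries (exact sign-flip test, p = 0.13). Without TRAJ32, left out after its values were seen, the difference was 0.367 nt. The spread within a library was 4.66 to 4.73 nt (SD over rearrangements) for nonproductive and 3.92 to 4.03 nt for in-frame CDR3s. Because in-frame lengths are multiples of 3, tails were compared in windows of 3 nt centred on them, chosen after the values were seen. Nonproductive CDR3s of up to 31 nt made up 2.57% to 3.21% of their class and in-frame CDR3s of up to 30 nt 1.46% to 2.12%. Nonproductive CDR3s of at least 50 nt made up 2.58% to 2.91% and in-frame CDR3s of at least 51 nt 1.01% to 1.19%. The classes did not overlap in either tail, with or without possible copies.

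Both nonproductive WT means lay below both Tet2/3 DKO means, a difference of 0.207 nt (exact permutation test, p = 0.33). The in-frame means were ordered in the same way. The difference between the classes was 0.528 nt in WT and 0.527 nt in Tet2/3 DKO, and it did not separate the genotypes (exact permutation test, p = 1).

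**Figure D2:**
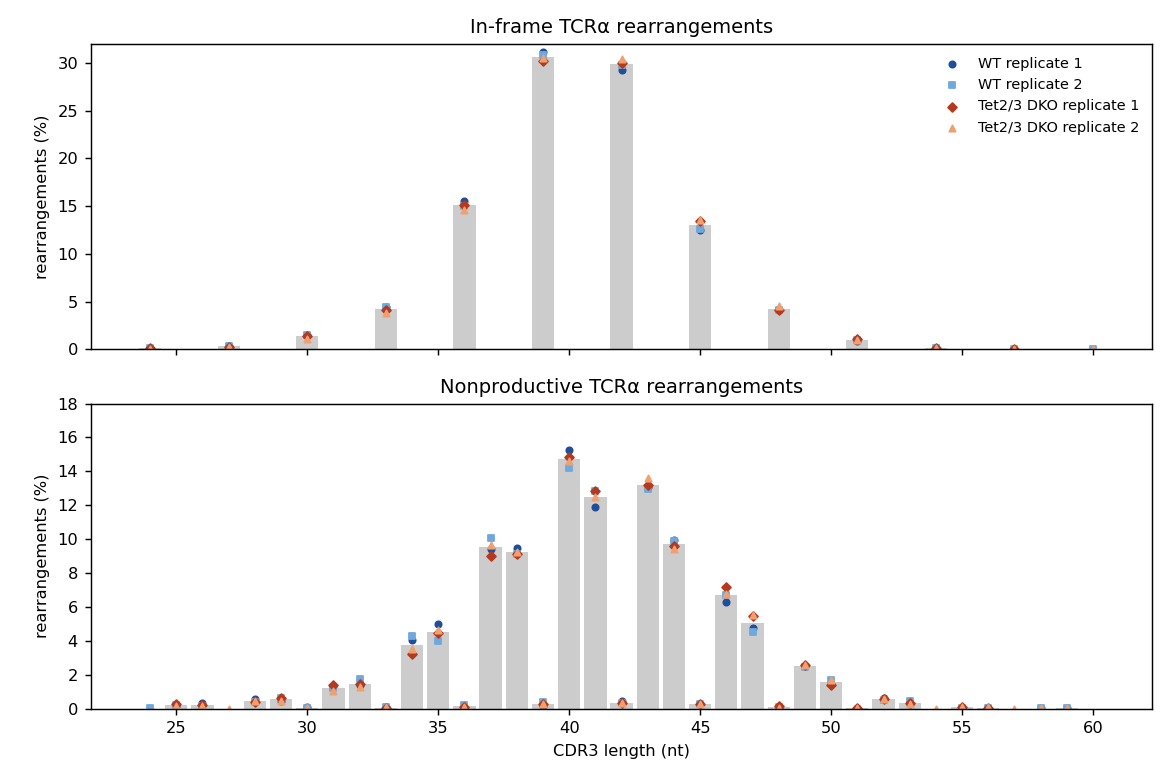
Percent of distinct rearrangements (vertical axes, different scales) at each CDR3 length in nucleotides, for in-frame TCRα rearrangements (upper panel) and nonproductive ones (lower panel). Bars are means of the 4 libraries and points are single libraries. In-frame CDR3s peak at 39 and 42 nt (30.7% and 29.9%), and nonproductive CDR3s at 40 and 43 nt (14.7% and 13.2%) with broader flanks.

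Frameshift CDR3s can leave a remainder of 1 or of 2, and the remainders were not equally frequent. Remainder 1 made up 54.2% and 54.1% of frameshift rearrangements in WT and 53.6% and 53.9% in Tet2/3 DKO. The share exceeded 50% by 3.95 percentage points ± 0.235 (SD, n = 4) and did so in 4 of 4 libraries (exact sign-flip test, p = 0.13). Without possible copies the mean share was 53.1%. Remainder 1 was the more frequent in 37 of the 43 TRAJ segments that had at least 10 frameshift rearrangements.

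Inserted bases were slightly more numerous in nonproductive joins. The mean was 2.43, 2.38, 2.43 and 2.40 nt, against 2.28, 2.30, 2.31 and 2.27 nt in in-frame joins. The difference of 0.117 nt ± 0.0273 (SD, n = 4) had the same direction in 4 of 4 libraries (exact sign-flip test, p = 0.13), and it was 0.335 nt without possible copies. Joins with an in-frame stop held 3.31 to 3.48 inserted nt. Joins without any inserted base made up 25.2% to 25.6% of nonproductive and 24.9% to 25.2% of in-frame rearrangements. Joins with at least 6 inserted bases made up 8.26% to 9.38% and 6.56% to 7.21%. The nonproductive share was 14.3% among joins without inserted bases, 13.6% with 1 to 2, 13.8% with 3 to 5 and 17.4% with at least 6. Without possible copies it was 10.8%, 11.4%, 13.0% and 17.2%. Joins without inserted bases then had the lowest share, but the filter itself removed nonproductive joins only, and most often those without inserted bases. The filter acts in the same direction on the difference of 0.335 nt.

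Usage of V segments differed between nonproductive and in-frame rearrangements in most segments tested. Each segment's share of nonproductive rearrangements was compared with its share of in-frame rearrangements within libraries, by edgeR's quasi-likelihood test on counts of rearrangements with the library as a block. The 101 V segments comprised 97 TRAV segments and 4 TRDV segments, V segments of the TCRδ locus, which lies within the TCRα locus. Of 98 V segments tested, 3 of them TRDV, 74 (75.5%) passed an adjusted p of 0.05, with 43 higher and 31 lower in the nonproductive class. With most segments different, a change of 1 segment is relative to the rest. TMM scaling moved the median log2 difference from 0.19 to 0.02 and gave 40 higher and 39 lower. Near-identical copies of V segments, marked D and N in their names, can exchange reads. With these copies merged, 43 of 53 passed.

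The segments with the largest rises were rarely used in frame. A join without preference for a frame would be out of frame in 66.7% of cases. TRAV4D-2 (chr14:52710917-52711402, GRCm38.p6) was nonproductive in 74.6% of its 122 rearrangements, with 77.4%, 79.3%, 72.4% and 69.7%. TRAV11N (chr14:53135122-53135678) was nonproductive in 67.9% of 361, with 76.6%, 67.9%, 62.0% and 67.4%. TRAV20 (chr14:53863110-53863661) was nonproductive in 65.8% of 196, with 71.4%, 64.0%, 59.6% and 68.9%. TRAV4D-2 and TRAV20 are V segment pseudogenes in RefSeq, and TRAV11N is listed there as a V segment.

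In these 3 segments the part of the V exon before the CDR3, read in the frame of the CDR3, held a stop codon in all in-frame clones (100%) and in 98.6% to 100% of nonproductive clones. In TRAV20 the length of this part was not a multiple of 3 in 100% of in-frame and 98.6% of nonproductive clones. The frame of its CDR3 is thus not the frame in which its V part starts. With a stop or a shift before the CDR3, the in-frame clones of the 3 segments could not encode a chain either, although the rule on the CDR3 counted them as in frame. An abundant nonproductive join of each is shown with the J part in capitals:
TRAV11N TRAJ26: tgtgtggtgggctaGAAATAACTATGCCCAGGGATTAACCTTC
TRAV4D-2 TRAJ40: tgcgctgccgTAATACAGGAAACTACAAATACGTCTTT
TRAV20 TRAJ31: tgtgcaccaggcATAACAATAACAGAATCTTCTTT

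The TRAV11N join had 42 reads and the TRAV4D-2 join 33 reads in WT replicate 1, and the TRAV20 join had 18 reads in Tet2/3 DKO replicate 2. Over the 3 segments, chosen after their values were seen, 68.5% of 679 rearrangements were nonproductive, against 13.9% of 162479 in all other V segments. Their in-frame clones, 40 to 73 per library, had 3.40, 3.67, 3.53 and 4.08 reads per clone, whereas in-frame clones of the other segments had 4.59, 4.62, 4.28 and 5.60. The log2 difference was -0.37 ± 0.08 (SD, n = 4) and negative in 4 of 4 libraries (exact sign-flip test, p = 0.13). Within the 3 segments, nonproductive and in-frame clones differed by -0.02 ± 0.18 on the log2 scale (SD, n = 4, exact sign-flip test, p = 0.875).

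The other segments among the largest rises were TRAV23, TRAV8-2 and TRAV15-2-DV6-2. TRAV23, a RefSeq pseudogene, was nonproductive in 14 of only 20 rearrangements and held no stop before the CDR3. TRAV8-2 was nonproductive in 61.6% of 151 rearrangements (57.5% to 64.3% per library), and none of its in-frame clones held a stop before the CDR3. TRAV15-2-DV6-2, which can also rearrange in the δ locus, was nonproductive in 50.8% of 191 (47.4% to 58.3% per library). Its V exon held a stop in 31.0% of in-frame and 73.6% of nonproductive clones. The 6 log2 differences ran from 2.64 (TRAV15-2-DV6-2) to 4.12 (TRAV4D-2, SE 0.27, adjusted p = 3.15e-37 by edgeR).

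The largest falls all belonged to the TRAV7 and TRAV14 families. TRAV7-2 (chr14:53390633-53391136), the V segment with the largest in-frame share among these, held 10.4%, 9.75%, 9.73% and 9.85% of in-frame rearrangements but 3.18%, 3.43%, 3.38% and 3.65% of nonproductive ones. The groups did not overlap, and its log2 difference was -1.54 (SE 0.05, adjusted p = 4.94e-88 by edgeR). TRAV14-3 fell by 1.84, TRAV7D-3 by 1.77, TRAV14D-3-DV8 by 1.50, TRAV7-3 by 1.48 and TRAV14D-1 by 1.47 on the same scale. Only 4.37% of TRAV14-3 and 4.60% of TRAV7D-3 rearrangements were nonproductive. By family, 6.93% of 23268 TRAV14 and 8.28% of 36030 TRAV7 rearrangements were nonproductive, whereas within TRAV7 the share ran up to 13.3% (TRAV7D-5).

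Among the 89 V segments with at least 50 rearrangements, 87 TRAV and 2 TRDV, the nonproductive share ranged from 4.37% to 74.6% with a median of 15.1%. It was under 10% in 26 segments, above 30% in 16 and above 50% in 5. TRAV6-6 (chr14:53516929-53517366) had the largest mean share of nonproductive rearrangements in both genotypes, 6.26% ± 0.898 against 5.18% ± 0.489 of in-frame ones (SD, n = 4). Its log2 difference of 0.27 (SE 0.05, adjusted p = 5.91e-07 by edgeR) was 0.10 with TMM scaling, no longer past the threshold, and -0.02 without possible copies.

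**Figure D3:**
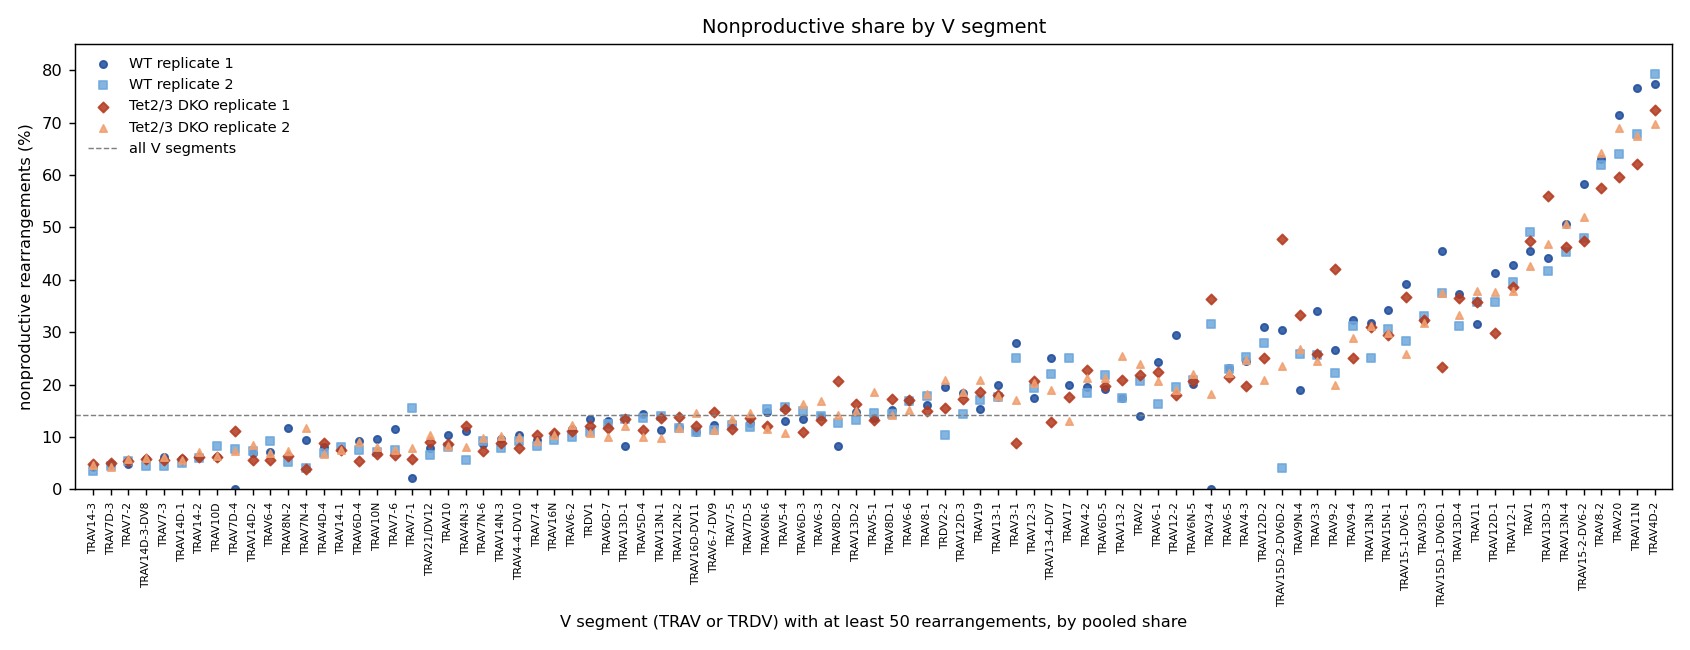
Percent of distinct rearrangements that were nonproductive (vertical axis) for each of the 89 V segments (87 TRAV and 2 TRDV) with at least 50 rearrangements (horizontal axis, ordered by the pooled share), with 1 point per library. The dashed line is the share over all V segments (14.1%). Shares run from 4.37% (TRAV14-3) to 74.6% (TRAV4D-2), and the spread between libraries differs among segments, as in TRAV13-2 with 17.4% to 25.4%.

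The position of a V segment sets which rounds of rearrangement it can join. The distal segments TRAV1 and TRAV2 made up 3.64%, 4.17%, 3.83% and 3.06% of nonproductive rearrangements, but only 0.859%, 0.793%, 0.793% and 0.761% of in-frame ones. Both passed the test as higher. TRAV1 alone was nonproductive in 46.3% of 1709 rearrangements (42.7% to 49.1% per library), and TRAV2 in 20.6% of 252. Of the 5 J-proximal segments (TRAV17 to TRAV21/DV12), 2 were higher, the pseudogene TRAV20 and TRAV19, and 1 was lower, TRAV21/DV12. As a group they held 3.53% ± 0.376 of nonproductive and 3.48% ± 0.0905 of in-frame rearrangements (SD, n = 4). The nonproductive shares were 3.16%, 3.28%, 3.76% and 3.94%, and the in-frame shares 3.43%, 3.43%, 3.61% and 3.45%. The nonproductive share was thus the lower in WT and the higher in Tet2/3 DKO. Without TRAV20, left out after its values were seen, the means were 2.98% and 3.43%, lower in 3 of 4 libraries. TRAV21/DV12 was nonproductive in 8.63% and TRAV19 in 18.2% of their rearrangements. Of 10 tested TRAV segments whose names also carry a DV number, as they can serve the δ chain, 5 were higher and 4 lower. Of the 3 tested TRDV segments, TRDV1 was lower, with 11.7% of 1853 rearrangements nonproductive.

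J-proximal V segments joined J segments with lower numbers, further from the V cluster, in nonproductive rearrangements. Their mean TRAJ number was 46.2, 46.7, 46.9 and 47.7 in nonproductive and 48.3, 49.2, 49.0 and 49.1 in in-frame rearrangements. The difference was -2.03 ± 0.484 (SD, n = 4), negative in 4 of 4 libraries (exact sign-flip test, p = 0.13), over 157 to 256 nonproductive rearrangements per library, and -1.57 ± 0.330 without TRAV20, left out after its values were seen. For the distal segments it was 0.444 ± 1.42 (SD, n = 4). Over all V segments the mean TRAJ number was 29.3, 29.2, 29.1 and 28.9 in nonproductive and 29.5, 29.3, 29.3 and 28.9 in in-frame rearrangements, a difference of -0.14 ± 0.12 (SD, n = 4, exact sign-flip test, p = 0.25), and -0.0075 without possible copies.

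TRAV11 encodes the V part of the invariant iNKT chain, which it forms with TRAJ18, and cells with that chain were sorted away. Of 2003 TRAV11 rearrangements 35.3% were nonproductive. The share was 32.8% of 131 with TRAJ18 and 35.5% of 1872 without it. The part of the sort in these shares was not tested.

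Among TRAJ segments, 25 of 43 tested (58.1%) differed between nonproductive and in-frame rearrangements, with 11 higher and 14 lower. Without possible copies 29 passed, 12 higher and 17 lower. TMM scaling gave 12 higher and 10 lower, and the DESeq2 test 11 higher and 9 lower. The segment with the largest rise was TRAJ32 (chr14:54186101-54186166), which held 5.67%, 5.92%, 5.96% and 5.78% of nonproductive and 2.03%, 2.10%, 2.0% and 1.99% of in-frame rearrangements. No nonproductive value overlapped an in-frame one. Its log2 difference was 1.53 (SE 0.05, adjusted p = 3.9e-61 by edgeR). Of its 4186 rearrangements 32.1% were nonproductive, 31.1% to 32.9% per library, whereas no other TRAJ segment with at least 50 rearrangements exceeded 30%.

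Among its frameshift joins, TRAJ32 had more of remainder 2 than of remainder 1. It had the largest such excess of the 43 TRAJ segments. In the 5 others in which remainder 2 was the more frequent, TRAJ15 led with 366 against 336 rearrangements. Remainder 2 was found in 190, 244, 236 and 260 rearrangements and remainder 1 in 91, 99, 104 and 111. The most abundant TRAJ32 joins of remainder 2 per library are shown with the J part in capitals:
WT replicate 1, TRAV6-3 TRAJ32: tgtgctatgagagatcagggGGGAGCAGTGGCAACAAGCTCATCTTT
WT replicate 2, TRAV6-6 TRAJ32: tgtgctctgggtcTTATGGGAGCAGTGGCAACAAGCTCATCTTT
Tet2/3 DKO replicate 1, TRAV7-3 TRAJ32: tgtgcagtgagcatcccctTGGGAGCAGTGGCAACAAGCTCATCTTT
Tet2/3 DKO replicate 2, TRAV7-2 TRAJ32: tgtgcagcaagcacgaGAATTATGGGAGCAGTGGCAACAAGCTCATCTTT

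These joins held 13, 18, 28 and 248 reads. The germline TRAJ32 sequence of these mice was not used here, so whether it differs from the reference of the clone assembler, which sets where the CDR3 ends, was not tested. They end on the same J sequence and differ in the V part, the inserted bases and the trimming, and they are 47, 44, 47 and 50 nt long. Either remainder of TRAJ32 could mostly be read to the end of framework 4 without a stop, in 95.8% of remainder 1 and 94.6% of remainder 2 clones.

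A test of remainder 2 against remainder 1, relative to all TRAJ segments and added after the values were seen, called 7 of 43 segments (16.3%). TRAJ32 was higher by 1.43 on the log2 scale (SE 0.09, adjusted p = 9.67e-32 by edgeR) and by 1.40 without possible copies. TRAJ15 was higher by 0.35. TRAJ40 fell by 0.62, TRAJ4 by 0.58, TRAJ52 by 0.50, TRAJ39 by 0.43 and TRAJ23 by 0.37. Without WT replicate 2 only 1 segment passed, and leaving out each other library gave 5 to 7. TRAJ32 passed in all of these fits.

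Nonproductive shares were also compared by whether the shifted frames of a TRAJ segment were open. In 10 TRAJ segments most clones of either remainder could be read to the end of framework 4, and 14.7% of their rearrangements were nonproductive, with a range of 9.74% (TRAJ44) to 32.1% (TRAJ32). Without TRAJ32, left out after its values were seen, the other 9 were nonproductive in 12.5% of 32646 rearrangements. In the 17 segments in which most clones of both remainders met a stop, the share was 14.6% with a range of 10.1% to 23.1%. It was 12.9% in the 12 segments open only in remainder 1 and 13.8% in the 4 open only in remainder 2.

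**Figure D4:**
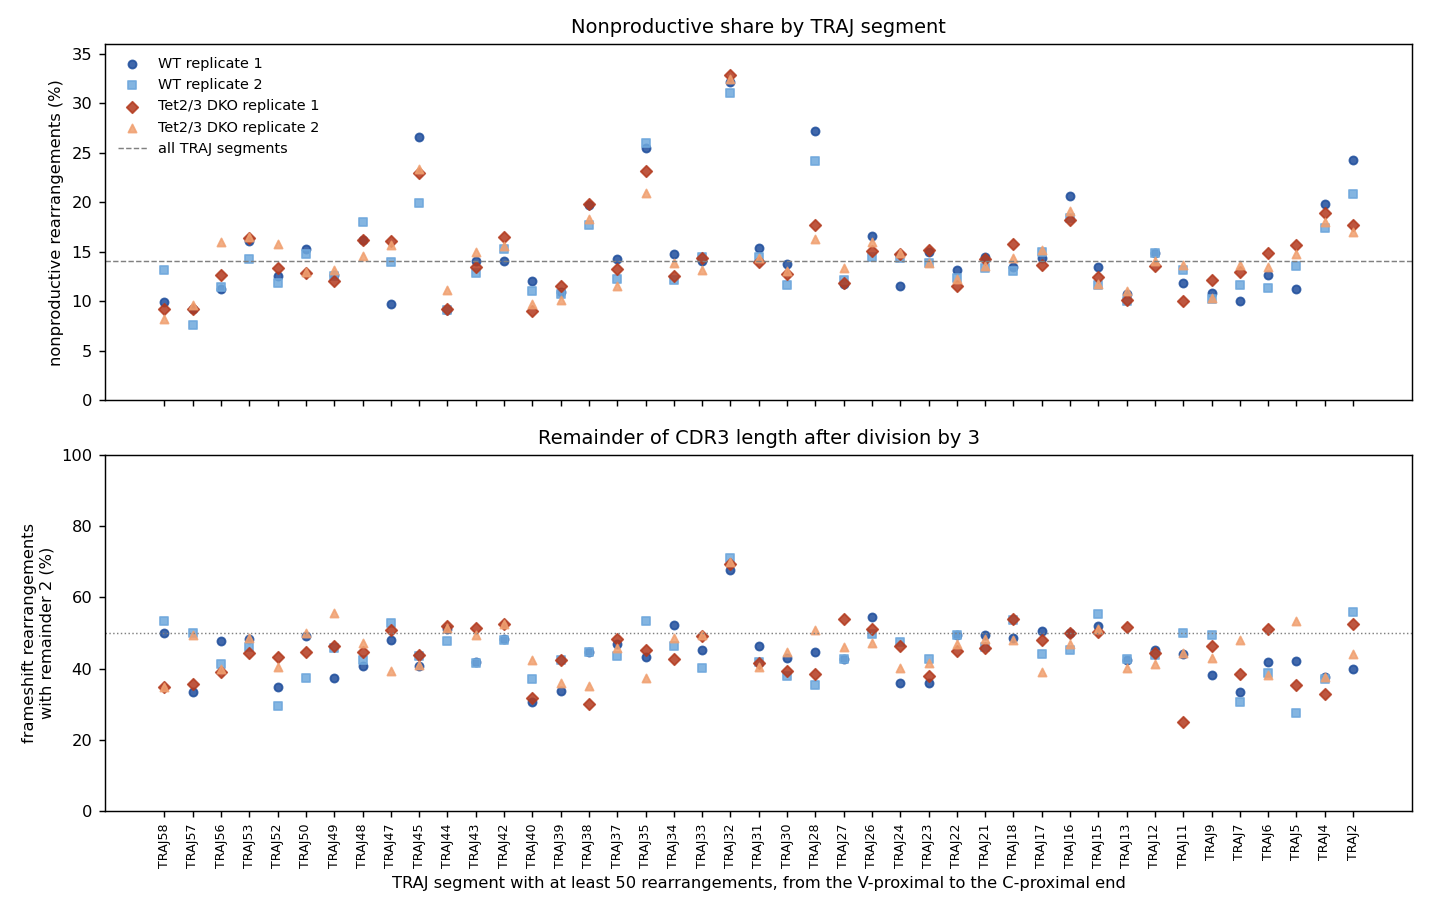
TRAJ segments with at least 50 rearrangements, ordered by position, V-proximal on the left and C-proximal on the right, with 1 point per library. The upper panel gives the percent of rearrangements that were nonproductive (dashed line, 14.1% over all segments), and the lower panel the percent of frameshift rearrangements with remainder 2 (dotted line, 50%). TRAJ32 stands highest in both panels. In the upper panel the WT points of TRAJ28 lie above its Tet2/3 DKO points.

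The other largest TRAJ rises were smaller. TRAJ35 was higher by 0.93, TRAJ45 by 0.87, TRAJ28 by 0.69, TRAJ2 by 0.56 and TRAJ16 by 0.51 on the log2 scale (adjusted p at most 0.000668 by edgeR). Their nonproductive shares ranged from 19.0% (TRAJ16) to 23.8% (TRAJ35). TRAJ57 fell by 0.74, TRAJ44 by 0.61, TRAJ58 by 0.55, TRAJ40 by 0.50, TRAJ13 by 0.48 and TRAJ39 by 0.44. In TRAJ57, at the V-proximal end, 8.94% of 2919 rearrangements were nonproductive. TRAJ31 had the largest mean share of nonproductive rearrangements in both genotypes, at 7.12% ± 0.357 against 6.88% ± 0.117 of in-frame ones (SD, n = 4), a difference that did not pass the test (adjusted p = 0.309 by edgeR).

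Grouped by position, the segments in the middle of the J cluster, TRAJ32 among them, held a larger share of nonproductive than of in-frame joins. TRAJ26 to TRAJ35 held 32.4%, 31.5%, 30.5% and 30.8% of nonproductive and 27.6%, 27.3%, 27.3% and 26.7% of in-frame rearrangements. The difference was 4.09 percentage points, positive in 4 of 4 libraries (exact sign-flip test, p = 0.13), and 4 of its 9 segments were higher and 2 lower. TRAJ32 made up most of this difference. With TRAJ32 left out of all counts, after its values were seen, the other 8 held 27.1% of nonproductive and 25.7% of in-frame rearrangements, a difference of 1.34 percentage points ± 0.787 (SD, n = 4), positive in 4 of 4 libraries. The segments at both ends of the cluster and TRAJ37 to TRAJ47 held a smaller share of nonproductive than of in-frame rearrangements in 4 of 4 libraries. TRAJ48 and up held 11.6% ± 0.174 of nonproductive against 12.9% ± 0.315 of in-frame rearrangements, TRAJ37 to TRAJ47 18.4% ± 0.578 against 19.6% ± 0.421, and TRAJ13 and below 14.6% ± 0.626 against 15.8% ± 0.466 (SD, n = 4). Without TRAJ32 these 3 groups were lower in 4 of 4 libraries, by 0.847, 0.517 and 0.572 percentage points on average in the same order. TRAJ15 to TRAJ24 held 24.1% ± 0.487 against 24.5% ± 0.625 and were lower in 3 of 4 libraries, but without TRAJ32 they were higher in 4 of 4, by 0.594 percentage points.

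Between genotypes, few segments were called in the usage of nonproductive rearrangements. With 2 libraries per genotype, these counts do not limit the size of differences in uncalled segments. Of 43 TRAJ segments, 1 (2.33%) passed an adjusted p of 0.05 and 6 had an unadjusted p under 0.05. Of 92 V segments, 0 (0%) passed by edgeR, 3 had an unadjusted p under 0.05, and DESeq2 called 0. The segment that passed was TRAJ28 (chr14:54191661-54191725). It held 1.39%, 1.41%, 0.988% and 0.877% of nonproductive rearrangements. The WT values were the higher ones and the genotypes did not overlap, with 69, 82, 57 and 57 rearrangements. The log2 difference was -0.59 (SE 0.17, adjusted p = 0.0415 by edgeR). DESeq2 gave the same log2 value but did not call it (adjusted p = 0.981), and it passed in 2 of the 15 fits that included the alternatives. Among in-frame rearrangements TRAJ28 held 0.631%, 0.710%, 0.753% and 0.741%, with Tet2/3 DKO above WT.

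The test of whether the nonproductive against in-frame difference itself varied with genotype also called TRAJ28 as 1 of 43 TRAJ segments (2.33%), with a log2 value of -0.74 (SE 0.16, adjusted p = 0.00934 by edgeR). It called 0 of 98 V segments (0%) by edgeR and by DESeq2, with 5 at an unadjusted p under 0.05 by edgeR. Neither TRAJ28 call was kept when any 1 of the 4 libraries was left out, but 1 genotype then had 1 library and only the other gave a spread. In these fits the genotype difference was -0.50 to -0.68, and the genotype difference of the class difference -0.66 to -0.82. The lost calls thus do not show that the values shrank. Without possible copies the genotype difference was -0.57 with an adjusted p of 0.066 by edgeR.

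Sharing of identical rearrangements between libraries, each from another mouse, was the last comparison. Of 22601 distinct nonproductive rearrangements, 22197 (98.2%) were found in 1 library, 372 in 2, 29 in 3 and 3 in 4. Of 120725 distinct in-frame rearrangements, 106861 (88.5%) were found in 1 library, 9697 in 2, 2805 in 3 and 1362 in 4. Of the 404 nonproductive rearrangements found in at least 2 libraries, 302 had at least 2 reads in at least 2 of them.

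Because more rearrangements give more chances to match, the shared number was divided by the number of possible pairs. The 6 pairs of libraries shared 71 to 87 nonproductive rearrangements, or 2.21 to 2.64 per 1000000 pairs, and 3876 to 4889 in-frame rearrangements, or 3.43 to 3.76 per 1000000 pairs. The ranges did not overlap, and the in-frame median was 1.51-fold higher. Without possible copies of in-frame clones, the pairs shared 21 to 36 nonproductive rearrangements and the in-frame median was 2.82-fold higher. In-frame rearrangements were not filtered in this comparison. The nonproductive values were 2.64 per 1000000 pairs between both WT libraries, 2.21 between both Tet2/3 DKO libraries and 2.24 to 2.63 between genotypes. The 6 pairs share libraries and are no independent replicates, so no test was made.

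Sharing was lower in joins with more inserted bases, compared over 4 bins of inserted bases and with no test. Without inserted bases the median was 25.1 nonproductive and 28.4 in-frame rearrangements per 1000000 pairs, a 1.13-fold gap, with overlapping ranges. Without possible copies, 9 to 23 in place of 46 to 61 nonproductive rearrangements of this kind were shared per pair, and the gap was 1.67-fold. With 1 to 2 inserted bases it was 6.74 and 11.8, and with 3 to 5 it was 1.04 and 4.21, a 4.07-fold gap that rests on 3 to 9 shared nonproductive rearrangements per pair. Without possible copies these gaps were 2.37-fold and 6.46-fold, the latter on 0 to 4 shared per pair. With at least 6 inserted bases no nonproductive rearrangement was shared. In a single pair of libraries, a count of 0 there allows up to 9.46 to 14.3 per 1000000 pairs, above the in-frame median of 2.87. No single pair could thus show a difference. Whether the counts of 0 over all pairs together fall below the in-frame values was not tested.

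**Figure D5:**
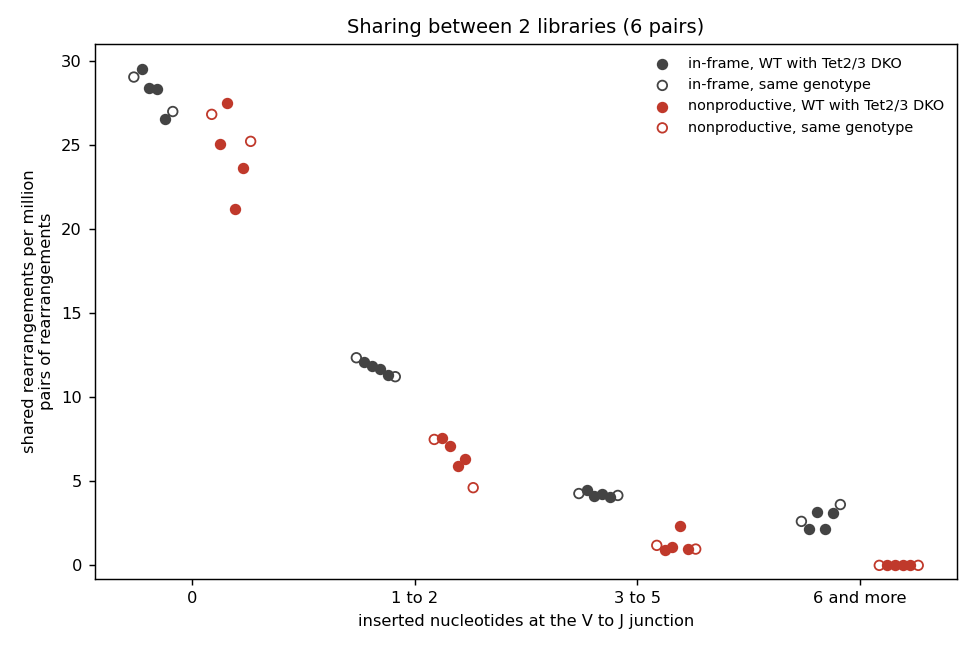
Rearrangements shared by 2 libraries per 1000000 possible pairs of rearrangements (vertical axis), by the number of inserted nucleotides (horizontal axis), for in-frame (grey) and nonproductive (red) TCRα rearrangements. Each point is 1 of the 6 pairs of libraries, open where both are of the same genotype. In-frame and nonproductive points overlap only for joins without inserted bases, and the nonproductive points are at 0 for at least 6 inserted bases.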

How the data were processed

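TCR SMART-seq libraries were available for splenic CD4 T cells of 2 WT and 2 Tet2/3 DKO mice. Per the labels and methods, total RNA was amplified by 5′ RACE with SMARTer TCR profiling reagents, reads were demultiplexed with bcl2fastq 2.20.0 and trimmed with fastp 0.21.0, and clones were assembled with MiXCR 4.7.0 (build mm10 in the submitters' processing notes). The authors deposited, for each clone, a count of reads and that count as a fraction of its chain. The fraction equalled the share of the counts and was otherwise not used.

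Segments are the best-scoring V and J hits, without alleles. Inserted bases are those between the V and J alignments. All 101 V and 44 J names matched RefSeq (GRCm38.p6). Segment counts of rearrangements were tested with edgeR 4.0.16 (quasi-likelihood, scaled by each library's total, at least 10 rearrangements per segment, Benjamini-Hochberg adjustment, threshold 0.05). The method was tested on simulated data in which a smaller share of segments changed than was called here between nonproductive and in-frame rearrangements. SEs are the log2 value over the square root of the F statistic. DESeq2 1.42.0, R 4.3.3, Python 3.11.15, numpy 2.4.6, pandas 2.3.3 and scipy 1.17.1 were also used. Single values per library were compared by exact two-sided permutation or sign-flip tests.

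The rule for the named segments took the segment with the largest mean nonproductive share per genotype and up to 6 rises and 6 falls that passed and had 1 direction in all 4 libraries, besides groups by position. TRAV11, TRAV19, TRDV1, TRAV13-2, TRAV7D-5, the segments of the test of remainders and TRAJ24 were chosen after their values were seen. Members and lists were chosen with earlier results of these data known. Alternatives covered the minimum of reads, merging, read weights, stops, possible copies, the denominator, scaling, filter, tool, a replicate block and each library left out.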

Additional observations from a re-analysis of the deposited data

Results flagged for a closer look

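The use of TRAJ28 among nonproductive against in-frame rearrangements differed between the genotypes, by a test of that difference itself. The log2 value for Tet2/3 DKO minus WT was -0.74 (adjusted p = 0.00934 by edgeR). The nonproductive share of TRAJ28 rearrangements was 27.2% in WT replicate 1, 24.2% in WT replicate 2, 17.7% in Tet2/3 DKO replicate 1 and 16.3% in Tet2/3 DKO replicate 2. Over the 13 fits that included the alternatives, the value ran from -0.82 to -0.66 and the adjusted p from 0.0034 to 0.584. It passed the threshold in 5 of them, and in none of the fits that left out a library, in which 1 genotype had 1 library.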

How the results depend on the processing

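Replicates of a genotype were 2 mice each, so p-values of 2 against 2 libraries say nothing about stability. The Tet2/3 DKO minus WT difference of the nonproductive share of clones changed sign in several alternatives. It was 0.137 percentage points for clones with at least 2 reads, 0.00296 for frameshift clones only, 0.105 with all clones in the denominator and -0.369 to 0.332 without each library in turn. That of the share of reads was -0.122 to 0.537 without each library, that of the log2 reads per clone -0.0127 to 0.0790, and that of the difference in CDR3 length between the classes -0.0378 to 0.0351 nt. The latter was 0.0756 nt weighted by reads and 0.00404 nt without possible copies of in-frame clones. The nonproductive minus in-frame difference in TRAJ number was 0.0166 weighted by reads. Sharing relative to in-frame rearrangements (log2 -0.59) was -1.44 without possible copies, -0.33 when only the CDR3 and TRAJ had to match and -0.62 to -0.47 without each library. The count of V segments that differed between the classes was 43 with D and N copies merged, when fewer segments were tested. The size of the smallest adjusted p over V segments depended on the setting. By edgeR it was 4.94e-88 in the main fit, 5.58e-10 with deposited clones counted once, and larger still without WT replicate 2. That of TRAJ32 in the test of remainders was also larger without WT replicate 2, at a log2 value of 1.39. The 1 TRAJ segment called between genotypes became 0 with at least 2 reads, with deposited clones counted once, with frameshift clones only, without possible copies, with DESeq2 (1 at an unadjusted p under 0.05), with no filter on segments and without any 1 library. Weighted by reads, another segment was called, TRAJ24 (log2 0.99, adjusted p = 0.0499 by edgeR). The 1 TRAJ segment whose class difference varied with genotype became 0 with at least 2 reads, weighted by reads, without possible copies, with DESeq2 and without any 1 library. The test of remainders called 1 to 7 without each library. The cause of these changes was not tested.

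No sign of a pairing by replicate number was seen. Deviations of same-numbered libraries had correlations of -0.14 over 43 TRAJ and 0.06 over 92 V segments. With 2 libraries per genotype, these values cannot exclude a pairing. With a replicate block 0 TRAJ and 0 V segments were called between genotypes. A crossed pairing, chosen after seeing the data, also called 0 of both. For the 26 named segment results, 311 of 319 values over all alternatives kept direction and side of the threshold, 5 kept only the direction and 3 changed sign, which were TRAJ31 at -0.0683 weighted by reads and -0.13 without possible copies, and TRAV6-6 at -0.0229 without possible copies. Depth limits the comparison of sharing within single pairs of libraries among joins with at least 6 inserted bases. Clones with 1 read made up 26.9% to 29.5% of nonproductive clones.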
